A study of Homo sapiens with 24 samples.

Results

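Metallothioneins and their regulator MTF1 were followed in nascent RNA of human osteosarcoma cells that received dexamethasone, a synthetic glucocorticoid. The 9 genes, MT2A, MT1X, MT1E, MT1F, MT1G, MT1M, MT1A, MT1L and MTF1, were chosen by name and are 9 of the 61533 genes in the count table. U2OS is an osteosarcoma line, and each of its 3 derivatives here expressed the glucocorticoid receptor (GR) fused to a HaloTag, from a CMV promoter on a transposon. The wt line carried unmutated GR, and the SoF line carried K492A, a substitution made to weaken the binding of GR to RNA. According to the authors K492A also lowers the affinity of GR for DNA, though by less. The Ctrl line carried R470A, a control substitution nearby. The authors report that R470A lowers the affinity for DNA and leaves that for RNA unchanged, so Ctrl is not a neutral control. Cells of each line received 100 nM dexamethasone, lasting 1, 2 or 3 h, or 0.01% ethanol as the vehicle (written 0 h), and 200 µM 4-thiouridine (4sU) was present for the last hour in all groups, so that RNA made in that hour could be pulled out and sequenced. Line and time together made 12 groups with 2 libraries apiece, 24 in all. All lines grew in medium with hormone-stripped serum and had been selected with puromycin and sorted, with fractions picked so that the nuclear GR signal after dexamethasone was alike. Each construct was represented by a single line, so the effect of the substitution and that of the line it was measured in cannot be told apart. Each line had a single ethanol group for all 3 times, and treatment began with a change of medium. The effect of dexamethasone and that of time since this change therefore cannot be told apart. Changes with dexamethasone given below are changes from that ethanol group.

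Metallothioneins are small, cysteine-rich proteins that bind zinc, copper and cadmium and buffer these metals in the cell. Most human genes of the family lie in a cluster on chromosome 16. MTF1 is a zinc-finger transcription factor that senses free zinc and binds metal response elements in metallothionein promoters, and glucocorticoids are a long-known inducer of metallothionein genes, MT2A among them.

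The 8 metallothionein genes spanned 75613 bp of chromosome 16 (hg38, 56608584 to 56684196), with MT1G on the minus strand and the other 7 on the plus strand. MT1L is annotated there as a transcribed pseudogene and the others as protein-coding. MTF1 lies on chromosome 1, from 37809574 to 37859592 on the minus strand. Promoters of 3 of the 9 genes, MT2A, MT1X and MTF1, were in the RefSeq promoter table for GRCh38, and the 300 bases before each start, read from hg38, are printed below from 5′ to 3′ because MTF1 is known to act through metal response elements close to the start. Capitals mark the metal response element core, searched on both strands as TGCACNC and TGCGCNC, with N for any base.
MT2A, chr16:56608284-56608583, plus strand: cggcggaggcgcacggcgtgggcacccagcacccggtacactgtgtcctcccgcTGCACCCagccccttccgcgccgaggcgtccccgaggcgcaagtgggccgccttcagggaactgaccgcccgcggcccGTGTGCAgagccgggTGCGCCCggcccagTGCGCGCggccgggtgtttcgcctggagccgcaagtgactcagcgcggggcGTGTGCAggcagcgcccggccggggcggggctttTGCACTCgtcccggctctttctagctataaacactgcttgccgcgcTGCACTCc
MT1X, chr16:56682170-56682469, plus strand: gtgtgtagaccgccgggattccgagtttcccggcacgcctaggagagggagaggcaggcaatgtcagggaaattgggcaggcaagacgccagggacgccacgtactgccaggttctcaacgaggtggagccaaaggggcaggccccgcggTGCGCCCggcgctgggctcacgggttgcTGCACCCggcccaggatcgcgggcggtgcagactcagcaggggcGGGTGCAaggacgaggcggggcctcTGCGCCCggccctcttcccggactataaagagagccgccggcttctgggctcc
MTF1, chr1:37859593-37859892, minus strand: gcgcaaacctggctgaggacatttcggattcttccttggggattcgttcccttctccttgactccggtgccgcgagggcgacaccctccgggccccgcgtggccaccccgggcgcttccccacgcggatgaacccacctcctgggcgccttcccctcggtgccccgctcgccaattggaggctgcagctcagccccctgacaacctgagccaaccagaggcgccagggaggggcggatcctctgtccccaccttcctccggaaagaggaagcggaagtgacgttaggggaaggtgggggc

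MT2A held 7 cores that did not overlap in these 300 bases and MT1X held 4, whereas MTF1 held none. In the table's own windows, from 250 bases before to 50 bases after the start, MT2A held 8, MT1X 4 and MTF1 0. At least 1 core was found in 29.6% of all 35116 promoters in the table, at least 4 in 0.339% and at least 8 in 0.0171%. The GR element was searched as AGAACA, 3 bases of any kind and TGTTCT, a palindrome with 12 fixed bases, from 500 bases before to 50 bases after each start. The best match at MT2A, shown because it lies between the printed cores and the upstream end, is the following, with bases that match the palindrome in capitals.
MT2A, chr16:56608318-56608332, plus strand: gGtACActgTGTcCT

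This match carried 9 of the 12 fixed bases and ended 252 bases before the start. The best matches at MT1X and MTF1 carried 7 of 12. A match of at least 9 of 12 was present in 20.9% of all promoter windows of the same 550 bases. These are letter matches and no binding was measured here.

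The libraries held 8106036 to 15820806 counts each. NR3C1, the gene of GR, whose counts here could come from the transgene and the native gene alike, ranged over the 8 libraries of a line from 333.8 to 1595 CPM (a gene's counts scaled to library size) in wt, from 1118 to 6273 in SoF and from 1627 to 7658 in Ctrl, so the mutant lines had higher medians (2187 and 2858 CPM) than wt (633 CPM). Of 8 markers of the osteoblast lineage, RUNX2, ALPL, COL1A1 and SPARC were at 8.07 CPM or more in every library, while SP7, IBSP, COL1A2 and BGLAP were at or near 0 and reached no more than 1.32 CPM. The 8 markers of epithelial, blood, endothelial and liver cells did not exceed 8.09 CPM in any library. In bulk RNA of this kind, fewer cells making a transcript and less of it made per cell cannot be told apart.

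The family's output came almost wholly from 3 genes. MT2A, MT1E and MT1X together held between 99.8% and 100.0% of the counts of the 8 metallothionein rows in each library. The 8 rows together made up 0.0153% to 0.0433% of a library in ethanol, 0.0613% to 0.0907% after 1 h, 0.0962% to 0.179% after 2 h and 0.0910% to 0.185% after 3 h. The range in ethanol therefore did not overlap that at any time with dexamethasone. Per kilobase of exon and averaged over the 24 libraries, MT2A stood at 593 CPM, MT1E at 390.5, MT1X at 23.2 and MTF1 at 12.9, and the other 5 genes were below 0.8. Paralogs share sequence, so part of their counts is uncertain. Among stretches of 50 bases in the annotated transcripts, 4.5% for MT2A, 7.1% for MT1E, 18.7% for MT1X, 16.4% for MT1G and 18.2% for MT1M also occur in transcripts of other genes. At 100 bases this was 0.0% for 7 of the 9, and it remained at 11.6% for MT1X and 100.0% for MT1L. The MT1X share came from a long noncoding RNA, ENSG00000259827, that covers 321 of its 1727 exon bases on the same strand and is in the count table. MT1L lies wholly within another, ENSG00000291105, which is not in the count table. Both are overlaps at the same locus and not sequence shared between paralogs.

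MT2A, the member with the highest level per kilobase, rose in all 3 lines. In the wt line, MT2A was at 187 and 166 CPM in the ethanol libraries, 463 and 501 after 1 h, 881 and 1044 after 2 h, and 814 and 977 after 3 h. In the SoF line it was at 158 and 80.9 in ethanol, then 493 and 364, 906 and 682, and 858 and 909 CPM. In the Ctrl line it was at 264.5 and 96.0 in ethanol, then 438.5 and 378, 607 and 609.6, and 516 and 615 CPM. In each line all 6 dexamethasone libraries lay above both ethanol libraries, and the level changed little between 2 and 3 h. How many of all genes show such an order was not counted, here or for MT1E, MT1X and the summed rows. After 3 h the log2 change reached 2.34 ± 0.32 (SE) for wt, 2.88 ± 0.33 for SoF and 1.64 ± 0.31 for Ctrl, that is 5.08-fold, 7.37-fold and 3.13-fold, with edgeR quasi-likelihood adjusted p-values (Benjamini-Hochberg) of 4.97e-05, 3.08e-06 and 0.00119. The Ctrl change depended on which ethanol library was kept: it was 2.57 without replicate 1 and 1.09 without replicate 2, and was called either way.

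MT1E, a type 1 metallothionein, rose in all 3 lines, with larger changes than MT2A in each, a difference between genes that was not tested. In the wt line, MT1E was at 120.3 and 91.8 CPM in ethanol, 334 and 339.8 after 1 h, 657 and 813.5 after 2 h, and 692 and 754 after 3 h. In the SoF line its levels were 98.3 and 51.2 in ethanol, then 333.5 and 232, 828 and 559, and 857 and 859 CPM. In the Ctrl line they were 147.5 and 55.5 in ethanol, then 273 and 209.9, 432 and 387, and 341 and 393 CPM. The groups again did not overlap with ethanol in any line, and at 3 h both Ctrl libraries were below all 4 wt and SoF libraries. After 3 h its log2 change reached 2.77 ± 0.33 for wt, 3.52 ± 0.34 for SoF and 1.85 ± 0.32 for Ctrl, or 6.82-fold, 11.4-fold and 3.595-fold (adjusted p by edgeR 9.70e-06, 4.25e-07 and 0.000537). Without ethanol replicate 1 of Ctrl its Ctrl change was 2.74, close to that of wt, and without replicate 2 it was 1.31.

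MT1X, also of type 1, rose in wt and SoF, and its change in Ctrl did not pass the test. In the wt line, MT1X was at 21.5 and 18.4 CPM in ethanol, 41.4 and 32.9 after 1 h, 57.0 and 75.2 after 2 h, and 60.8 and 60.4 after 3 h. In the SoF line the values were 19.5 and 9.32 in ethanol, then 43.96 and 26.0, 66.0 and 43.5, and 84.05 and 73.9 CPM. In the Ctrl line the values were 29.8 and 12.01 in ethanol, then 34.2 and 27.8, 37.0 and 30.1, and 26.1 and 28.45 CPM. The 2 Ctrl libraries at 3 h lay between the 2 ethanol libraries of that line, whereas in wt and SoF all dexamethasone libraries lay above ethanol. The log2 change after 3 h was 1.60 ± 0.32 for wt, 2.44 ± 0.33 for SoF and 0.35 ± 0.32 for Ctrl (adjusted p by edgeR 0.00196, 2.52e-05 and 0.510). The 95% interval of the Ctrl change, from -0.32 to 1.02 on the log2 scale, includes a rise as well as a fall. Without replicate 1 of Ctrl ethanol the Ctrl change became 1.20 and was called, with an adjusted p of 0.0251 by edgeR, and without replicate 2 it became -0.13. The SoF change was 3.09 without ethanol replicate 1 of that line.

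**Figure D1:**
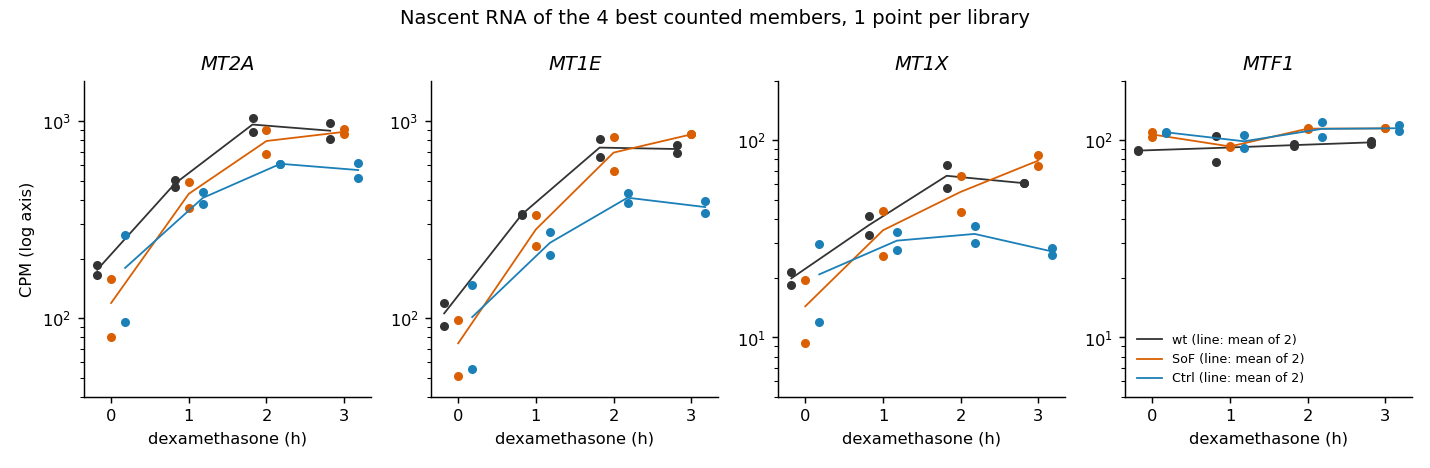
Level in CPM (log axis) of MT2A, MT1E, MT1X and MTF1 against hours of dexamethasone in the wt, SoF and Ctrl lines, with 1 point per library and lines through the means of 2 libraries. MT2A and MT1E climb from ethanol to 2 h in each line, MT1X stays low in Ctrl, and MTF1 stays between 77.45 and 124 CPM throughout.

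MTF1, the metal sensor, was not called in any line at any time. In the wt line, MTF1 was at 88.2 and 89.3 CPM in ethanol, 77.45 and 105.5 after 1 h, 93.1 and 96.1 after 2 h, and 95.9 and 99.5 after 3 h. In the SoF line it was at 104 and 110.0 in ethanol, then 92.75 and 93.5, 114 and 115, and 115.0 and 115 CPM. In the Ctrl line it was at 111 and 109 in ethanol, then 106 and 91.5, 105 and 124, and 119.5 and 111 CPM. At 3 h the log2 change was 0.14 ± 0.14 for wt, 0.10 ± 0.14 for SoF and 0.07 ± 0.14 for Ctrl (adjusted p by edgeR 0.580, 0.642 and 0.787). The average over the lines was 0.10 ± 0.08, with a 95% interval of -0.06 to 0.27, so a rise of more than 0.27 on the log2 scale lay outside it.

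At 1 h the changes were smaller and fewer of them passed the test in a single line. MT1E was the 1 member called in wt, at 1.67 ± 0.32, in a comparison where 0.118% of the 23651 tested genes were called higher. MT2A (1.84 ± 0.32) and MT1E (1.91 ± 0.32) were called in SoF, where 0.161% of tested genes were called higher. No member was called in Ctrl, where 0.0465% of tested genes were called higher, 423 genes had an unadjusted p under 0.05, and DESeq2 called 15 genes and none of the members. In Ctrl, MT2A and MT1E changed by 1.17 ± 0.31 and 1.24 ± 0.32, with unadjusted p-values of 0.000977 and 0.000722 and adjusted ones of 0.817 and 0.657 by edgeR. Whether the lines differed at 1 h was not tested. The 1 h calls within lines depended on single libraries. None remained in wt when any wt library of 0 or 1 h was left out, nor in SoF without ethanol replicate 2 or without 1 h replicate 1, and both MT2A and MT1E were called in Ctrl, at 2.09 and 2.12, without ethanol replicate 1.

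Averaged over the 3 lines, with 6 libraries a side, MT2A (1.49 ± 0.18), MT1E (1.61 ± 0.18) and MT1X (0.90 ± 0.19) were each called at 1 h, when 0.731% of tested genes were called higher. At 2 h the averages were 2.31 ± 0.18 for MT2A, 2.67 ± 0.19 for MT1E and 1.43 ± 0.19 for MT1X, and at 3 h they were 2.29 ± 0.18, 2.71 ± 0.19 and 1.46 ± 0.19. The 2 h and 3 h averages thus differed by less than their standard errors for each of the 3 genes. All 3 were called at both times, where 16.2% of tested genes were called higher at 2 h and 20.9% at 3 h. MT1M, which is described further on, was also called at both times, but it passed the filter on low counts through its dexamethasone libraries and is not counted beside that background. MTF1 was not called. Within lines, MT2A, MT1E and MT1X were called higher in wt at 2 h and 3 h (background 3.39% and 6.6%). They were also called in SoF (4.2% and 11.2%), and in Ctrl MT2A and MT1E were called (5.58% and 8.58%). The numbers of all genes called within a line, in either direction, moved by more than 1.5 times with single libraries left out, at 1 h in wt and SoF and at 2 h and 3 h in all lines. The MT1X calls at 2 h in wt and at 1 h in the average were lost when any of 2 and 3 libraries, respectively, was left out. These comparisons share their ethanol libraries. For MT2A, replicate 1 in ethanol exceeded replicate 2 by 1.13-fold in wt, 1.96-fold in SoF and 2.76-fold in Ctrl, and MT1E and MT1X showed ratios of 1.31 and 1.17, 1.92 and 2.09, and 2.66 and 2.48. Replicate 1 was thus the higher in ethanol in all 3 lines, and over all genes the replicate differences of the ethanol groups correlated with each other at 0.39 or more, so the 6 ethanol libraries behind the averages may not be independent. With a replicate block the averages called as many members, 3 at 1 h and 4 at 2 h and at 3 h, where the 4 include MT1M with the selection named above.

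**Figure D2:**
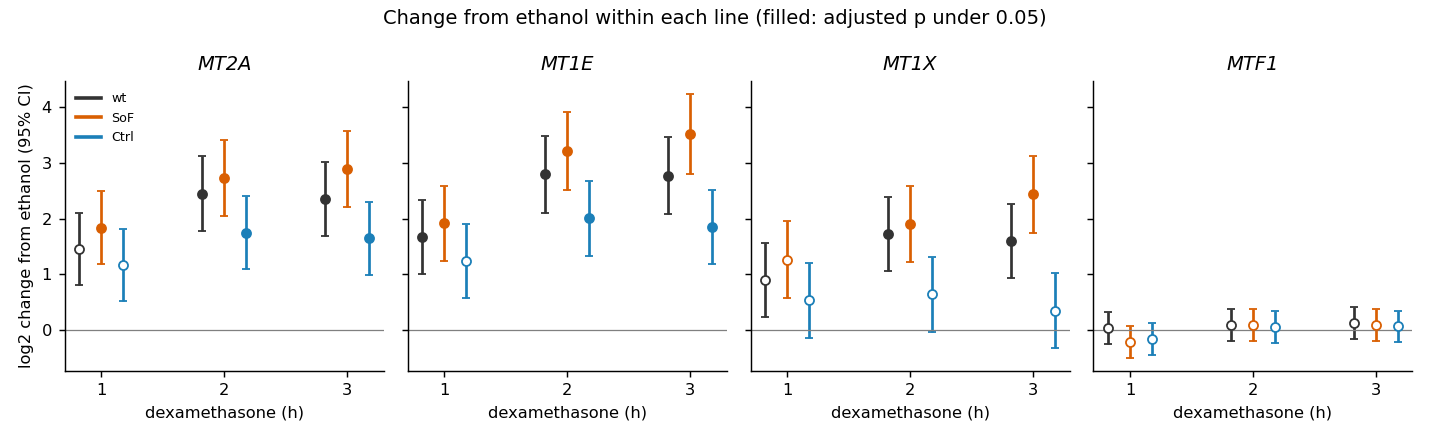
Log2 change from ethanol with its 95% confidence interval for MT2A, MT1E, MT1X and MTF1 at 1, 2 and 3 h in each line, with filled points for an adjusted p under 0.05. At 3 h the unadjusted intervals of SoF and Ctrl do not overlap for MT1E (3.52 and 1.85) and MT1X (2.44 and 0.35). The difference SoF minus Ctrl was not called for either gene (adjusted p by edgeR 0.7905 and 0.386). Without ethanol replicate 1 of Ctrl the Ctrl changes were 2.74 and 1.20. The intervals of MTF1 all include 0.

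The other 5 metallothionein members had so few counts that little can be said of them one by one. MT1M and MT1G, type 1 genes of the cluster, reached at most 17 and 11 counts in a library, and MT1F, MT1A and MT1L at most 2, 2 and 3. MT1M passed the filter on low counts, and only in the fit with 12 groups, while MT1F, MT1G, MT1A and MT1L passed in no fit and were not tested. A gene this low passes through the groups where it is high, so its calls carry that selection.

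In ethanol MT1M had 5 and 0 counts in wt, 0 and 0 in SoF, and 3 and 0 in Ctrl. After 2 h it had 13 and 7 counts in wt, 17 and 5 in SoF, and 5 and 8 in Ctrl, the highest summed count of any time in each line. After 3 h it had 6 and 10, 3 and 5, and 1 and 3. MT1M was therefore seen in all 18 dexamethasone libraries and in 2 of the 6 ethanol libraries. For how many genes with as few counts this holds was not counted. In SoF, with ethanol at 0, 3 counts over the group were taken as the floor. The MT1M level there was 7.38-fold this floor at 2 h and 2.61-fold at 3 h. Counting error of the dexamethasone counts is not included, so these folds are not lower bounds. MT1M was called in SoF at 2 h and 3 h (adjusted p by edgeR 0.00892 and 0.0484) and in the average over lines at 2 h and 3 h (0.000388 and 0.0219), and DESeq2 gave it no adjusted p in either SoF comparison. Leaving out 1 library at a time ended the 3 h call in SoF for 18 of the 24 libraries, the 2 h call in SoF for 2 and the 3 h call in the average for 3.

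Summed over the 6 libraries of a time, MT1M had 8, 24, 55 and 28 counts at 0, 1, 2 and 3 h, and MT1G had 10, 17, 38 and 22. Both were highest at 2 h, at 0.763 CPM (95% exact Poisson interval 0.575 to 0.993) for MT1M and 0.527 CPM (0.373 to 0.723) for MT1G. In ethanol they were at 0.108 CPM (0.0468 to 0.213) and 0.135 CPM (0.0649 to 0.249). For both genes the 0 h and 2 h intervals did not overlap, which covers counting error only and not the spread between libraries. The 2 h time was picked as the highest, and how many genes with as few counts show this was not counted. MT1A showed no such course, with 5, 5, 5 and 3 counts, and MT1L had 1, 4, 7 and 7. MT1F had 0 counts in the 6 ethanol libraries, which allows up to 0.0406 CPM with 3 counts as the floor (the exact 95% Poisson interval reaches 0.0499 CPM), and 4, 3 and 2 counts at 1, 2 and 3 h.

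**Figure D3:**
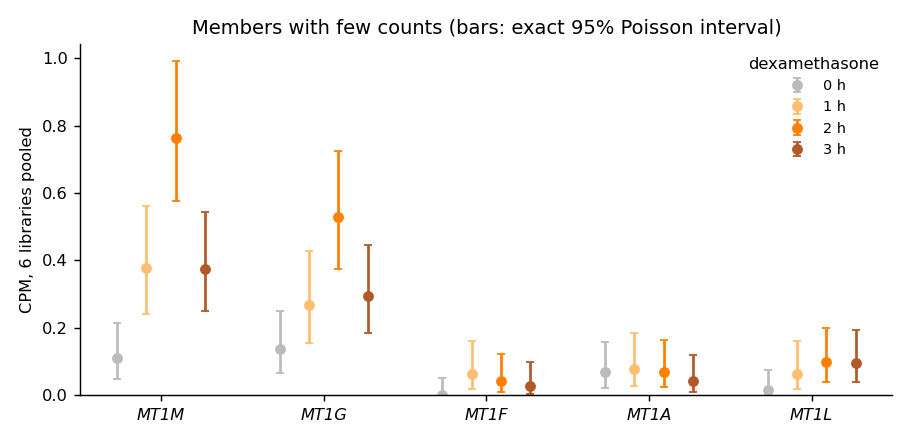
Level in CPM, pooled over the 6 libraries of each time, of the 5 members with few counts, with exact 95% Poisson intervals that cover counting error only. MT1M and MT1G peak at 2 h with 0.763 and 0.527 CPM, and the intervals of MT1F, MT1A and MT1L overlap across times.

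The balance between the 3 main genes differed between ethanol and dexamethasone libraries, which can be followed as ratios of counts inside a library that no scaling between libraries changes. In ethanol, MT1E had 55.4 to 64.3 counts per 100 MT2A counts in wt, 62.0 to 63.3 in SoF and 55.75 to 57.8 in Ctrl. SoF thus lay above Ctrl before any dexamethasone, and wt overlapped both. After 3 h MT1E had 77.2 to 85.0 in wt, 94.5 to 99.9 in SoF and 63.9 to 66.1 in Ctrl. The 3 lines did not overlap then, with SoF highest and Ctrl lowest. MT1X moved the other way against MT2A, from 11.1 to 12.5 counts per 100 MT2A counts in ethanol to 6.56 to 8.94 after 1 h. After 3 h it had 6.19 to 7.47 in wt, 8.13 to 9.79 in SoF and 4.625 to 5.06 in Ctrl, with the same order of lines and again no overlap. These ratios were examined after the levels had been seen and were not tested, and transcript length enters their size but not their course. How many other pairs of genes separate the lines in this way was not counted.

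**Figure D4:**
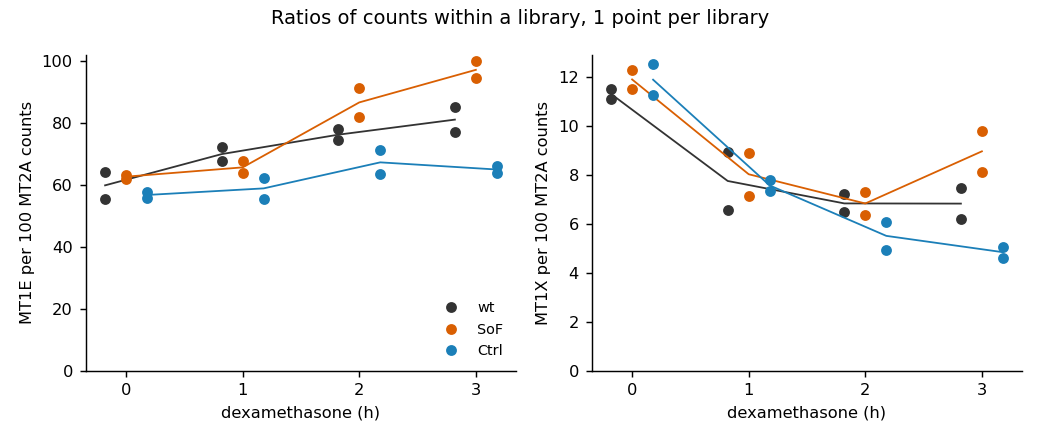
Counts of MT1E (left) and MT1X (right) per 100 MT2A counts against hours of dexamethasone, 1 point per library with lines through the means, by line. At 3 h the lines do not overlap for either gene. SoF was then at 94.5 to 99.9 and 8.13 to 9.79, and Ctrl at 63.9 to 66.1 and 4.625 to 5.06. For MT1E, SoF already lay above Ctrl in ethanol, at 62.0 to 63.3 against 55.75 to 57.8.

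Whether GR with weakened RNA binding changes the response was addressed by the difference between lines in the change from 0 to 3 h. With all libraries kept, the changes of MT2A, MT1E and MT1X were largest in SoF and smallest in Ctrl, but none of the 5 tested members was called for a difference between any pair of lines. SoF minus Ctrl came to 2.08 ± 0.46 on the log2 scale for MT1X (unadjusted p = 0.000161, rank 9 of 23651 genes, adjusted p by edgeR 0.386), 1.67 ± 0.44 for MT1E (adjusted p by edgeR 0.7905) and 1.24 ± 0.43 for MT2A (adjusted p by edgeR 1). The 95% intervals were 1.13 to 3.035 for MT1X, 0.75 to 2.59 for MT1E and 0.34 to 2.14 for MT2A before adjustment. In this comparison 0.0127% of the tested genes were called, 3 in all. SoF minus wt was 0.54 ± 0.43 for MT2A, 0.75 ± 0.44 for MT1E and 0.83 ± 0.45 for MT1X, and Ctrl minus wt was -0.70 ± 0.43, -0.92 ± 0.44 and -1.25 ± 0.45. In both of these comparisons 0.0% of genes were called, with 558 and 845 genes at an unadjusted p under 0.05 and 0 and 1 called by DESeq2. For MT1M, whose SoF ethanol libraries were at 0, no difference is given. For MTF1 the differences between lines lay between -0.07 and 0.03. The SoF minus Ctrl values rested on the ethanol libraries of Ctrl. Without replicate 2 of Ctrl ethanol MT1X (2.56) and MT1E (2.20) were called, with adjusted p-values of 0.0163 and 0.0224 by edgeR, and without replicate 1 the differences fell to 1.24 for MT1X, 0.78 for MT1E and 0.315 for MT2A. Ctrl minus wt was then 0.23 for MT2A, -0.03 for MT1E and -0.41 for MT1X, so Ctrl no longer had the smallest change of MT2A. Without replicate 1 of SoF ethanol, MT1X came to 2.735 for SoF minus Ctrl (adjusted p by edgeR 0.0549) and to 1.48 for SoF minus wt. With no filter on low counts MT1X (2.10), MT1E (1.69) and MT2A (1.26) were all called, at changes close to those above. Their adjusted p-values by edgeR were then 3.47e-10, 1.07e-09 and 5.30e-05. With changes so alike, these calls turned on how the fit estimated the spread between libraries. That fit called 52 genes for SoF minus Ctrl, against 3. Other size factors, a replicate block and DESeq2, each with all libraries kept, called 0 members.

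Lines were also compared over all times together, 8 libraries a line. No member was called, where 8.02% of 21122 tested genes were called between SoF and wt, 4.77% between Ctrl and wt and 3.61% between SoF and Ctrl. MTF1 was 0.21 ± 0.07 higher on the log2 scale in SoF than in wt and 0.24 ± 0.07 higher in Ctrl than in wt (adjusted p by edgeR 0.0669 and 0.0592). With time as an additive term both passed, at adjusted p-values of 0.0136 and 0.00916 by edgeR. That fit called far more genes in all, 6134 for SoF minus wt and 3965 for Ctrl minus wt, against 1693 and 1007. MT2A, MT1E and MT1X differed from wt by -0.17 ± 0.44, 0.02 ± 0.51 and 0.01 ± 0.34 in SoF and by -0.51 ± 0.44, -0.76 ± 0.51 and -0.70 ± 0.34 in Ctrl, with a spread within each line that contains the dexamethasone response.

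Other genes of the family and of zinc and copper handling were read from lists of known function, in the average over lines at 3 h, where 40.3% of tested genes were called in either direction and the median log2 change of all genes was -0.035. Only 2 of 13 further metallothionein rows could be tested, the pseudogenes MT1JP, at 2.31 ± 0.41, and MT2P1, at 1.49 ± 0.42, and both were called (adjusted p by edgeR 0.000118 and 0.00686). MT1JP lay at 0.0 to 0.741 CPM in ethanol and at 0.720 to 2.03 CPM after 3 h, and MT2P1 at 0.0 to 0.462 and 0.430 to 0.908. As low rows they passed the filter through their dexamethasone libraries, which selects for a rise, so these calls carry that selection and are not evidence of one. They also share stretches of 50 bases with MT1E and MT2A, 3.2% and 2.0% of those 2 genes' own, so that their counts are uncertain.

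Of 11 tested zinc importers, which bring zinc into the cytosol, 6 rose and 1 fell, with a list median of 0.33. SLC39A13, a zinc transporter of the secretory pathway, rose from a median of 23.5 CPM in ethanol to 52.1 after 3 h, by 1.09 ± 0.11 (adjusted p by edgeR 9.78e-08). SLC39A6 rose by 0.62 ± 0.08 and SLC39A14, which also carries iron and manganese, by 0.71 ± 0.11, whereas SLC39A9 fell by 0.26 ± 0.07. Of 8 tested zinc exporters 1 rose, SLC30A3 by 0.55 ± 0.16, and 1 fell, SLC30A9 by 0.26 ± 0.09, with a median of 0.03. SLC30A1, the plasma membrane exporter and the best known MTF1 target outside the family, is given here after its values were seen: it lay at 203 to 334.6 CPM in ethanol and at 220.3 to 300.6 CPM after 3 h, and its change was -0.05 ± 0.11 (adjusted p by edgeR 0.723). This average covers lines that differed in direction, with 0.29 in wt, -0.04 in SoF and -0.41 in Ctrl, none of them called.

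Of 7 genes known as MTF1 targets outside the family, 3 rose and 1 fell, with a median of 0.17. The list does not separate genes that MTF1 activates from genes it represses, so these numbers do not measure MTF1 activity. GCLC, the catalytic subunit of the enzyme that starts glutathione synthesis, rose by 0.58 ± 0.09, the selenoprotein gene SELENOW by 0.54 ± 0.11 and the zinc importer SLC39A10 by 0.38 ± 0.11. CSRP1, a LIM-domain protein, fell by 1.56 ± 0.13, from 467 to 739 CPM in ethanol to 180.2 to 226 CPM after 3 h. Of 11 copper genes 1 rose and 3 fell, with a median of -0.03. SCO2, which delivers copper to cytochrome c oxidase, rose by 1.35 ± 0.17, and the copper ATPase ATP7A, the chaperone ATOX1 and the mitochondrial chaperone COX17 fell by 0.36 ± 0.11, 0.30 ± 0.09 and 0.32 ± 0.11. Of 7 tested genes flanking the cluster on chromosome 16, 2 rose, OGFOD1 by 0.59 ± 0.10 and BBS2 by 0.40 ± 0.10, and none fell, with a median of 0.16.

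**Figure D5:**
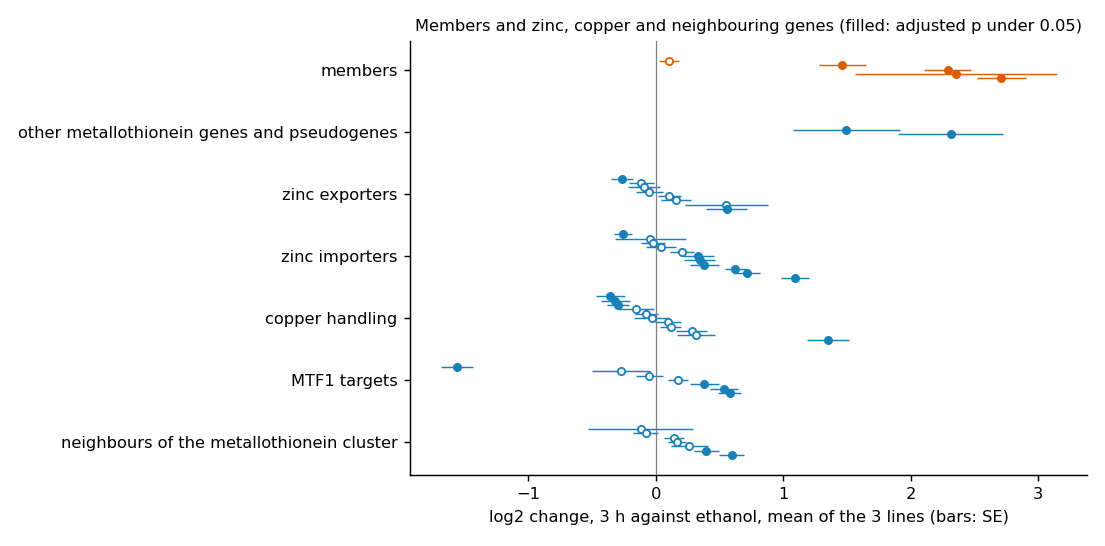
Log2 change at 3 h against ethanol, averaged over the 3 lines, with its SE, for the 5 tested members (orange) and the tested genes of 6 lists (blue), filled where the adjusted p was under 0.05. The 4 called members lie between 1.46 and 2.71, apart from MTF1 at 0.10, and CSRP1 is the lowest point at -1.56. MT1M among the members and the pseudogenes MT1JP and MT2P1 passed the filter on low counts through their dexamethasone libraries. Their calls carry that selection.

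The genes whose log2 CPM over the 24 libraries ran most like MT2A were ranked among 19702 genes with a mean of at least 1 CPM, as a description in which time, line and library are shared by all points. Inside the family MT1E had a Pearson r of 0.99 with MT2A and MT1X 0.93, while MTF1 had 0.12. Outside the family CASTOR1, an arginine sensor of the mTORC1 pathway, came first with 0.96, followed by GMPR, a GMP reductase, SNAI2, a zinc-finger transcription factor, ENSG00000284633 and CPNE7, each at 0.94 or 0.95. CASTOR1 went from a mean of 7.41 CPM in ethanol to 44.4 CPM after 3 h and SNAI2 from 89.7 to 239.7. For MTF1 the closest were MTG2 (0.92), ZNFX1, RNF114, DIDO1 and PCGF3 (0.87 or 0.88), of which MTG2 stood at a mean of 53.3 CPM in ethanol and 59.96 after 3 h.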

How the data were processed

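Nascent RNA was labelled with 4sU, biotinylated, pulled down and sequenced as pairs of reads with unique molecular identifiers. The authors trimmed reads with Trim Galore 0.6.6, aligned them to hg38 with STAR 2.7.3a, removed duplicates with UMI-tools 1.1.2 and counted them with featureCounts, and they deposited whole-number counts per gene over GENCODE 39 exons for the 24 libraries. How reads that match several paralogs were counted is not given in the sources used here. Gene names came from GENCODE 44, which matched 99.7% of the 61533 identifiers. CPM were computed with edgeR's TMM factors. Genes passing filterByExpr (minimum count 10) were tested with edgeR 4.0.16's quasi-likelihood test, 23651 in a fit with 12 groups and 21122 in a fit on line alone, with Benjamini-Hochberg adjustment over all genes tested and calls at 0.05. DESeq2 1.42.0, other size factors, no filter, a replicate block and leaving out each library were tried as alternatives. The code was tested on simulated data. The labels number replicates but do not say that they are separate cultures, so p-values measure the spread between these libraries. The paper states that replicate pairs went through biotinylation and pulldown together, so this spread may leave out variation from the pulldown. The members and gene lists were chosen with earlier results of these data known. All 9 members are described, those tested are named where a comparison turns on them, the list genes named are the called ones, at most 4 a list in order of p at 3 h, and the genes of like pattern are the top 5. A gene of the list of cluster neighbours is not reported here, and the list's counts and median leave it out.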

Additional observations from a re-analysis of the deposited data

How the results depend on the processing

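Over the 18 comparisons, the number of members called stayed within 1.5 times of the reported number in 69 of 78 recalculations with another tool, scaling, filter or design, and in 416 of 432 that left out 1 library. In most of these 432 the library left out was in none of the groups compared and entered only through the shared fit. A number of 0 before and after also counts as unchanged. The 416 therefore say little of how far the calls depend on the libraries compared. The exceptions with no low-count filter were wt at 1 h (3 members against 1), Ctrl at 1 h (2 against 0), SoF minus Ctrl at 3 h (3 against 0) and Ctrl minus wt at 3 h (1 against 0). DESeq2 gave 2 at 1 h in wt and 1 for Ctrl minus wt over all times, MTF1. With time as an additive term the numbers over all times were 1 for SoF minus wt and 2 for Ctrl minus wt, MTF1 and MT1E. Leaving out 1 library gave 0 to 2 for wt at 1 h, 0 to 2 for SoF at 1 h, 0 to 2 for Ctrl at 1 h, 0 to 2 for SoF minus Ctrl at 3 h, and 0 to 1 for SoF minus wt and for Ctrl minus wt over all times. The cause of these changes was not tested. No called member reversed its direction under any alternative run. The replicate numbers were not taken as pairing the libraries, since over 66 pairs of groups the correlation of replicate differences ran from -0.22 to 0.57 with a median of 0.04 and was above 0.1 in 21, although it was at least 0.39 among the 3 ethanol groups. A replicate block gave 2 members at 1 h in wt, where MT2A joined MT1E, and changed no other number of members called. The number of all genes called moved by more than 1.5 times in the following cases that keep all libraries. With no filter it was 516 at 1 h in wt against 37, 1706 at 2 h in wt against 1089, 245 at 1 h in SoF against 39, 44 at 1 h in Ctrl against 11, 1035 at 1 h in the average over lines against 303, 52 for SoF minus Ctrl at 3 h against 3, 4 and 17 for SoF minus wt and Ctrl minus wt at 3 h against 0, and 1004 and 583 for SoF minus wt and Ctrl minus wt over all times against 1693 and 1007. DESeq2 called 105, 79 and 12 at 1 h in wt, at 1 h in SoF and for SoF minus Ctrl at 3 h, and the replicate block 59 at 1 h in wt. Over all times, an additive time term gave 6134, 3965 and 2814 and the ethanol libraries alone 82, 73 and 82 for SoF minus wt, Ctrl minus wt and SoF minus Ctrl, the last against 763. Leaving out 1 library moved it as far in 13 of the 18 comparisons, so the background shares there depend on single libraries: 13 to 118 at 1 h, 144 to 1378 at 2 h and 953 to 2811 at 3 h in wt, 14 to 52, 424 to 2096 and 1772 to 5542 in SoF, 346 to 3257 at 2 h and 983 to 4560 at 3 h in Ctrl, 164 to 1002 at 1 h in the average, 0 to 4 and 0 to 2 for SoF minus Ctrl and Ctrl minus wt at 3 h, and 946 to 2605 and 647 to 1296 for SoF minus wt and Ctrl minus wt over all times.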

Other observations

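Of the 13 further metallothionein rows of the count table, 5 (MT4, MT3, MT1CP, MT1B and MT1IP) had no count in any of the 24 libraries. Besides the tested pseudogenes MT1JP and MT2P1, counts summed over the 6 libraries of each time at 0, 1, 2 and 3 h were 5, 9, 14 and 8 for MT1H, 10, 10, 11 and 8 for MT1P1, 3, 3, 9 and 6 for MT1P3, and 3, 9, 13 and 13 for MT1XP1. MT1HL1 and MT1DP had 1 count each in all. MT1JP, with 24, 46, 141 and 107 counts, and MT2P1, with 17, 21, 67 and 47 at these times, were both highest at 2 h, as MT1M and MT1G were. These rows share stretches of sequence with the main members, and what part of their counts belongs to those members was not tested.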
